A study of Mus musculus with 2 samples.

Results

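The 8 genes Spp1, Lpl, Cst7, Clec7a, Gpnmb, Lgals3, Fabp5 and Ch25h, which are known as effector genes of disease-associated microglia, were followed through single-cell RNA sequencing of sorted mouse brain cells. They were chosen by gene symbol among 32285 gene rows, by a rule that uses no measured value, but with earlier results of these data known. Counts were available for 7 of the 8 genes. Clec7a was not analysed here, because no gene row carries its symbol or its identifier. In the GENCODE M21 annotation of mm10 the type of Clec7a is polymorphic pseudogene, and 0 of the 82 genes of that type were among the gene rows.

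Whole brains of 6 male Disc1 WT/WT mice (WT) and of 6 male littermates homozygous for the locus impairment allele, Disc1 LI/LI (LI), all 23 weeks old, were pooled by genotype, which gave 1 library each. The allele is in the germ line and so in all cells of the LI mice, and the strain is not given in the labels. Actinomycin D, a transcription inhibitor, was present while both pools were dissociated, and CD45low CD11b+ cells were sorted into 10x droplets. With 1 library per genotype there was no replicate and no test, and genotype, pool, sort and library cannot be told apart. All intervals are 95% exact intervals, Poisson for levels and Clopper-Pearson for shares and ratios, and they cover counting error only.

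Microglia are the resident macrophages of the brain. Near amyloid plaques, dying neurons and damaged myelin they leave the homeostatic state, lower genes such as P2ry12, Cx3cr1 and Tmem119, and switch on a program that proceeds in an early stage with Apoe and Tyrobp and a later stage that requires the lipid receptor Trem2. The genes followed here belong mostly to the later stage. Spp1 encodes the secreted phosphoprotein osteopontin, Lpl the lipoprotein lipase that frees fatty acids from lipoproteins, Cst7 an inhibitor of cysteine cathepsins (cystatin F), and Lgals3 galectin-3, which binds sugars on damaged lysosomes and on cell surfaces. Fabp5 carries fatty acids inside cells, Ch25h makes the oxysterol 25-hydroxycholesterol, Gpnmb is a membrane glycoprotein of the lysosome and Clec7a is the beta-glucan receptor dectin-1. Several of them are also well known from blood cells, Lgals3 from monocytes and neutrophils and Cst7 from NK cells and cytotoxic T cells.

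The 7 counted genes lie on 7 loci of mm10, each on a different chromosome. Spp1 (ENSMUSG00000029304) spans chromosome 5, 104435118 to 104441050, and Lpl (ENSMUSG00000015568) chromosome 8, 68880491 to 68907448. Cst7 (ENSMUSG00000068129) spans chromosome 2, 150570415 to 150578944, Lgals3 (ENSMUSG00000050335) chromosome 14, 47367751 to 47386160, and Fabp5 (ENSMUSG00000027533) chromosome 3, 10012548 to 10016607. Ch25h (ENSMUSG00000050370) spans chromosome 19, 34473778 to 34475164, on the minus strand, and Gpnmb (ENSMUSG00000029816) chromosome 6, 49036546 to 49070929. Clec7a (ENSMUSG00000079293) is the other gene on chromosome 6.

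Promoter windows of 250 bases before the RefSeq transcription start (GRCm38.p6) were at hand for 6 of the 8 genes. Those of Spp1, Cst7 and Lgals3 are shown, because these 3 genes were led by different cells below, and capitals mark a GAGGAA match. The windows are chr5:104434861-104435110 for Spp1, chr2:150570165-150570414 for Cst7 and chr14:47373610-47373859 for Lgals3, all on the plus strand and written from 5′ to 3′. That of Lgals3 lies inside the annotated span of the gene, which begins upstream of this start.
Spp1: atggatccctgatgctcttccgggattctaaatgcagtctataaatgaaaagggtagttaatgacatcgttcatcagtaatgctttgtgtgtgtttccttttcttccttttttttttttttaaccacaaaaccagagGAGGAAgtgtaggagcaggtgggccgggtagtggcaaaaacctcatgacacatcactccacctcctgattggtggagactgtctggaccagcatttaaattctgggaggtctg
Cst7: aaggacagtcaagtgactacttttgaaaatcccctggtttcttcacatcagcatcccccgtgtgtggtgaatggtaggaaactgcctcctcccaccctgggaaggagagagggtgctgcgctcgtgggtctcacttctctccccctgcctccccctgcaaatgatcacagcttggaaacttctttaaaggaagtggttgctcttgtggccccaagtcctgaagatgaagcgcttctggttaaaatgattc
Lgals3: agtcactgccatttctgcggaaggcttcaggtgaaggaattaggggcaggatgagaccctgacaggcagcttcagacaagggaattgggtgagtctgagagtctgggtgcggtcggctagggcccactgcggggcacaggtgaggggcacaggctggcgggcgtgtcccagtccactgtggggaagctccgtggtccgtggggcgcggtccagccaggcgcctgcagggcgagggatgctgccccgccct
The PU-box core GAGGAA, which the myeloid factor PU.1 binds, occurred 1 time in the window of Spp1 and 1 time in that of Clec7a, and 0 times in those of Cst7, Gpnmb, Lgals3 and Ch25h, with both strands searched. It occurred in 23.1% of all 27025 promoter windows of this length. The E-box CACGTG (6.05% of all windows) and the AP-1 motif TGANTCA (6.87%) had 0 matches in the 6 windows. Lpl and Fabp5 are named only.

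After cells under 200 genes or over 10% mitochondrial counts were left out, 7032 WT and 7817 LI cells remained. Counts are of UMIs, random tags by which each captured transcript is counted 1 time. Medians were 4234.5 and 4566 UMIs per cell, and 12 barcodes occurred in both libraries. Disc1 itself had 642 UMIs (19.1 CPM, 17.7 to 20.6) against 22 (0.461 CPM, 0.289 to 0.698), which follows the labels. Levels are in CPM, the UMIs of a gene over all cells of a class for each 1e+06 UMIs of that class. Cells were called microglia where P2ry12, Gpr34, Tmem119, Siglech, Fcrls and Olfml3 together made up at least 0.5% of UMIs and S100a8 with S100a9 under 1%, neutrophils where S100a8 with S100a9 made up at least 3%, and other cells otherwise. Microglia numbered 6180 of the WT cells (87.9%) and 1950 of the LI cells (24.9%), neutrophils 116 (1.65%) and 3622 (46.3%), and other cells 736 (10.5%) and 2245 (28.7%). The 10 genes with the highest fold over the other cells included 6 and 7 of the 8 fixed microglia markers in the 2 libraries. All of these but Sall1 in WT and Sparc in LI are genes of the rule itself, so their lead was set by it. Most cells of the LI sort lie outside the microglia class. Near the limit of the microglia class, 293 WT and 164 LI cells had a marker share within 0.1 percentage points of 0.5%. UMIs of at least 3 of 8 neutrophil markers were found in 0.615% of WT and 71.3% of LI microglia. At least 3 markers of another listed type were found in 4.79% and 9.90%. The listed types include antigen-presenting cells, with H2-Aa and Cd74 among the markers (158 WT and 66 LI microglia), and cycling cells (22 and 6). A listed marker therefore does not by itself show a cell of another type, and the origin of these UMIs was not tested.

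The 7 genes were rare in microglia of both genotypes. None of the 7 was detected in more than 6.10% of the microglia of either library. UMIs are counted at the 3′ end of transcripts, once each and not per length, and levels are compared here for 1 gene between cells, not between genes.

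Cst7 had 376 UMIs in WT microglia, a level of 12.8 CPM (11.5 to 14.2), and 141 UMIs in LI microglia, 17.3 CPM (14.5 to 20.4). It was detected in 282 of 6180 cells (4.56%) and in 104 of 1950 cells (5.33%). The log2 ratio, LI over WT, was 0.43 (0.14 to 0.71), which is a 1.35-fold difference and under the 1.5-fold limit used for calls. It passed that limit in 2 of 15 other settings, with 0.82 at 1000 UMIs per cell and 0.67 as a mean over cells.

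Spp1 had 331 UMIs in WT microglia (11.3 CPM, 10.1 to 12.5) and 24 in LI microglia (2.94 CPM, 1.88 to 4.37), a log2 ratio of -1.94 (-2.60 to -1.34). The shares of cells with a UMI lay close together, 36 of 6180 cells (0.583%) and 12 of 1950 cells (0.615%). Of the 331 UMIs, 154 lay in 1 cell and 132 in another, together 86.4%, while 29 of the 36 cells held 1 UMI each. Without the 2 microglia with the most UMIs of these genes in each library, the ratio turned to 0.94. The summed level of Spp1 in WT thus rests mostly on 2 cells.

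Both of these cells carried several of the other genes. The first, with 21443 UMIs in all, held 10 Lpl, 8 Cst7, 27 Apoe and 51 P2ry12 UMIs besides its 154 Spp1 UMIs. The second, with 17961 UMIs, held 20 Lpl, 11 Cst7, 55 Apoe and 46 P2ry12 UMIs besides 132 of Spp1. Neither had a UMI of Lgals3, of Gpnmb, or of Mrc1 and Pf4, which mark border-associated macrophages, and neither held more than 2 of the 8 markers of any other cell type. No LI microglial cell had more than 8 Spp1 UMIs.

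Lpl had 312 UMIs in WT microglia (10.6 CPM, 9.47 to 11.9) and 34 in LI microglia (4.16 CPM, 2.88 to 5.81), with a log2 ratio of -1.35 (-1.91 to -0.84). It was detected in 2.96% and 1.38% of cells. The UMIs were spread over 183 WT cells, of which 141 held 1 UMI and the highest held 39. This difference went the same way without the 2 highest cells (-1.25), but with the microglia class widened to a marker share of 0.25% it was 0.081, the opposite sign.

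Lgals3 had 184 UMIs in WT microglia (6.26 CPM, 5.39 to 7.23) and 227 in LI microglia (27.8 CPM, 24.3 to 31.6), with a log2 ratio of 2.15 (1.86 to 2.44). It was detected in 1.17% and 6.10% of cells. Fabp5 had 117 UMIs (3.98 CPM, 3.29 to 4.77) and 93 UMIs (11.4 CPM, 9.19 to 13.9), with a log2 ratio of 1.52 (1.11 to 1.92), and was detected in 1.73% and 3.74% of cells. Both genes were higher in LI microglia, and both were many times more abundant in the monocytes and neutrophils of the same library, as described below.

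Ch25h had 11 UMIs in 7 WT microglia (0.374 CPM, 0.187 to 0.670) and 0 UMIs in 1950 LI microglia. Read as up to 3 UMIs, this 0 allows up to 0.154% of cells with a UMI and 0.367 CPM, and the exact 95% upper limits are 0.189% and 0.451 CPM. The difference was not detectable at this depth. Gpnmb had 1 UMI in 6180 and 0 in 1950 microglia, so no fold can be given.

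Among the 5 genes with at least 10 UMIs and a UMI in both libraries, Lgals3 and Fabp5 were at least 1.5-fold higher and Spp1 and Lpl at least 1.5-fold lower in LI microglia. Of all 8107 genes at 1 to 50 CPM in microglia, the range that holds these 5, 24.8% were at least 1.5-fold apart, 4.77% higher and 20% lower. Of all 13137 genes with at least 10 UMIs it was 26.1%, 6.91% higher and 19.2% lower. The median log2 ratio of the 5 genes was 0.43, that of Cst7, and 0.20 with Ch25h at its limit, beside -0.21 over the 8107 genes. TMM scaling raises every log2 ratio in microglia by 0.13 and median-of-ratios scaling by 0.15, and neither turned a direction among the 5 genes.

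**Figure D1:**
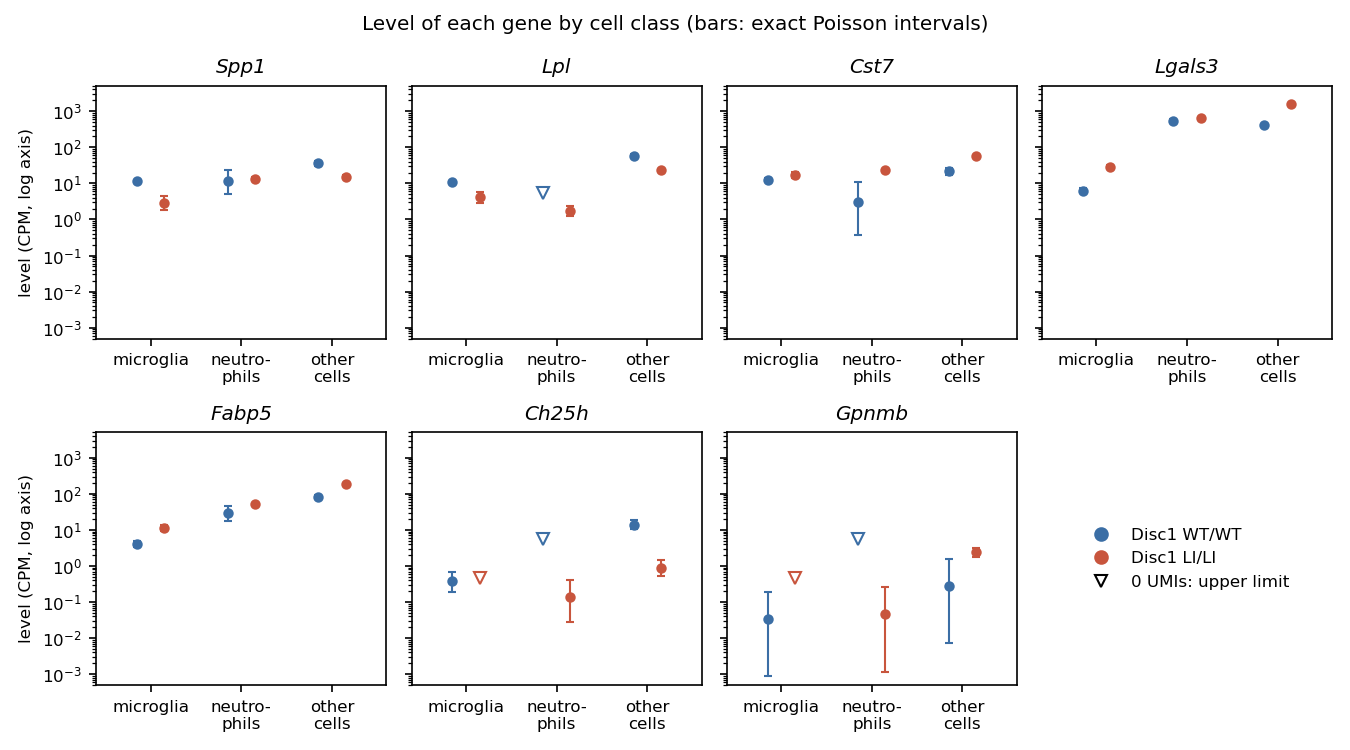
Level of each of the 7 counted genes (CPM, log axis) in microglia, neutrophils and other cells of the WT (blue) and LI (red) library, with exact Poisson 95% intervals, and open triangles at the upper limit where no UMI was counted. Lgals3 and Fabp5 lie lowest in microglia in both libraries, and Cst7 in WT lies between 3.00 and 21.8 CPM in all 3 classes.

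The other cells and the neutrophils were then split, since the 7 genes have known sources in blood and at the borders of the brain. A cell of the other cells was called after a type, as type-like, where at least 4 of 8 fixed markers of that type were detected and more than of any other listed type. This scoring rule was set after the data were seen, and the names are rebuilt ones, not those of the study. Neutrophils were split by primary granule genes (Mpo, Elane, Prtn3 and Ctsg at least 1% of UMIs), then by secondary granule genes (Camp, Ngp and Ltf at least 3%), also after the data were seen. Doublets were not removed.

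Lgals3 was led by monocytes. Classical monocyte-like cells held it at 2203 CPM in WT (550 UMIs, 32 of 32 cells) and 2425 CPM in LI (17379 UMIs, 1019 of 1023 cells), a log2 ratio of 0.14 (0.016 to 0.26). Nonclassical monocyte-like cells held 552 and 769 CPM, neutrophils 538 and 652 CPM, and antigen-presenting cell-like cells 220 and 950 CPM. Border-associated macrophage-like cells held 17.8 CPM in WT (5 UMIs in 77 cells) and 82.8 CPM in LI (4 UMIs in 13 cells). The microglial level was 0.284% of the classical monocyte-like level in WT and 1.15% in LI.

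Cst7 had a different set of sources. Within the neutrophils of LI, 446 of 493 UMIs lay in the 49 cells with primary granule genes, at 302 CPM (274 to 331) and in 45 of these 49 cells. Neutrophils with secondary granule genes held 2.09 CPM (1.36 to 3.09) and those with neither 2.69 CPM (1.69 to 4.08), which lies more than 100-fold lower. Granulocyte progenitor-like cells of the same library held 332 CPM, in 27 of 29 cells, and Cst7 is among their 10 leading genes. NK cell-like cells held 222 and 231 CPM in the 2 libraries and T cell-like cells 86.8 and 134 CPM. Classical monocyte-like cells held 0 UMIs in 32 WT cells and 5.16 CPM in LI, and border-associated macrophage-like cells 0 UMIs in both libraries. The exact upper limits of these zeros, 14.8 CPM for the WT monocyte-like cells and 13.1 and 76.3 CPM for the macrophage-like cells of WT and LI, lie above the microglial levels of 12.8 and 17.3 CPM, so no order can be given there.

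Fabp5 was broad. It reached 132 and 172 CPM in classical monocyte-like cells, where 40.6% and 44.4% of cells had a UMI, and 173 CPM in the granulocyte progenitor-like cells of LI. In the neutrophils it was higher in those without either granule gene set (54.8 and 109 CPM) than in those with secondary granule genes (8.49 and 19.6 CPM). In antigen-presenting cell-like cells it reached 137 and 310 CPM, but 75.8% and 82.2% of these UMIs lay in 2 cells of each library. Cells in which most of the detected markers were those of the cell cycle held 207 and 246 CPM. Those of WT were led by Prtn3, Ctsg, Elane and Mpo and those of LI by Prss34, Mcpt8 and Cpa3, so the pair is not compared.

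Spp1 and Lpl were patchy outside microglia. Spp1 reached 51.8 and 42.5 CPM in antigen-presenting cell-like cells and 11.99 and 13.5 CPM in neutrophils, where 198 of 3622 LI cells (5.47%) had a UMI, and it had 117 CPM (26 UMIs in 7 of 13 cells) in the WT cells with mostly cell cycle markers described above. It was at 0 in the nonclassical monocyte-like cells (upper limits 37.0 and 30.5 CPM in WT and LI) and the T cell-like cells (24.6 and 14.6 CPM) of both libraries. In the B cell-like cells of LI all 27 Spp1 UMIs lay in 1 cell of 100. Lpl reached 41.7 and 7.88 CPM in antigen-presenting cell-like cells, 12.02 and 29.3 CPM in classical monocyte-like cells, and 0 in T cell-like and NK cell-like cells of both libraries. The upper limits of these Lpl zeros were 24.6 and 14.6 CPM in T cell-like and 62.9 and 18.5 CPM in NK cell-like cells of WT and LI. In the unnamed other cells of WT it held 96.2 CPM (168 UMIs in 38 of 367 cells). In the 13 border-associated macrophage-like cells of LI it had 8 UMIs, 7 of them in 1 cell.

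Ch25h had 60 UMIs in the whole WT library and 19 in the whole LI library. Antigen-presenting cell-like cells held 28 UMIs in 21 of 153 WT cells (40.3 CPM, 26.8 to 58.2) and 9 UMIs in 5 of 99 LI cells (14.2 CPM, 6.48 to 26.9), a log2 ratio of -1.51 (-2.77 to -0.38). The leading genes of this class were shared only in part. H2-Aa and Cd74 led in both libraries, Cxcl9, Retnla and Mgl2 in WT only, and Cd209a, Clec10a and Klk1 in LI only. The part of this in the ratio was not tested. In border-associated macrophage-like cells Ch25h had 1 UMI in each library. Classical and nonclassical monocyte-like, T cell-like, NK cell-like and B cell-like cells were at 0 in both libraries. The exact upper limits of these zeros, in this order, were 14.8, 37.0, 24.6, 62.9 and 104 CPM in WT. In LI they were 0.515, 30.5, 14.6, 18.5 and 10.4 CPM. The WT zeros therefore do not show absence. Over the whole class of other cells the level was 13.9 CPM in WT and 0.892 CPM in LI, a log2 ratio of -3.96 (-4.87 to -3.12), with antigen-presenting cell-like cells 153 of 736 in the first and 99 of 2245 in the second. Gpnmb had 44 UMIs in the whole LI library, 31 of them in 1 antigen-presenting cell-like cell, and 2 UMIs in the whole WT library.

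**Figure D2:**
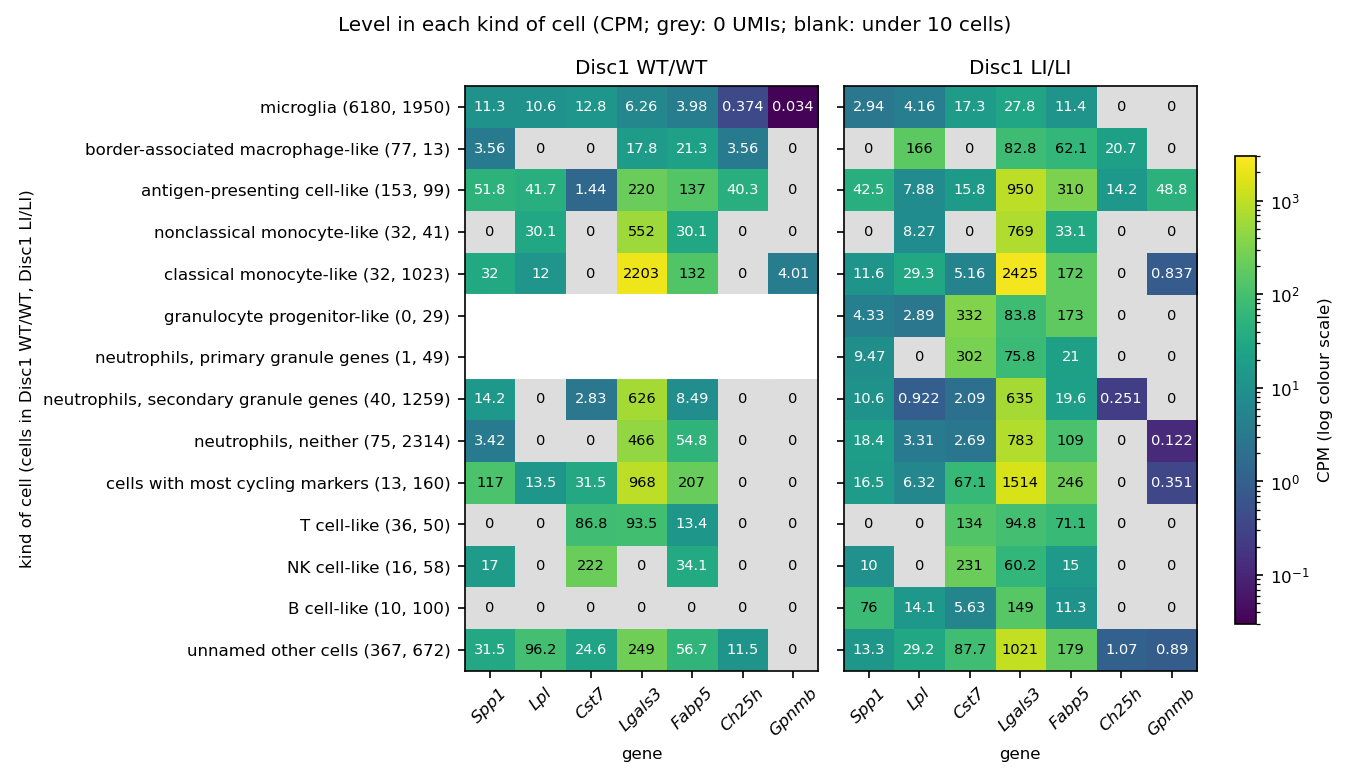
Level of each of the 7 counted genes (CPM, log colour scale, value printed in each field) in each kind of cell, for the WT library (left) and the LI library (right), with the number of cells beside each row. Lgals3 reaches 2203 and 2425 CPM in classical monocyte-like cells, Cst7 332 CPM in granulocyte progenitor-like cells, and Ch25h 40.3 CPM in the antigen-presenting cell-like cells of WT.

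Over the 14 classes with at least 50 cells in a library, the genes whose pattern was most like each of the 7, by Pearson's r of log2(CPM + 10), were listed. The 14 points share libraries and depth, and r is a description. For Cst7 they were Nkg7, a granule membrane protein of cytotoxic cells (r = 0.93), Ndufv3 (0.84) and Prpf38a (0.84). For Lgals3 they were Gpr141 (0.97), Pira2 (0.94) and the actin gene Actg1 (0.93), and for Ch25h the chemokine gene Cxcl9 (0.98), Creb5 (0.96) and Col14a1 (0.94). Fabp5 was nearest to Stxbp6 (0.88), Relt (0.88) and Mcub (0.87), and Lpl to Cxcl12 (0.82), Igfbp7 (0.82) and Tsc22d1 (0.81). Spp1 had the least alike neighbours, Haao (0.80), Ciita (0.78) and Cnn3 (0.78). The highest of its 14 points was that of the B cell-like cells of LI, 76.0 CPM, where 1 cell of 100 held all 27 UMIs. For Gpnmb the values (Sct 0.99, Klk1 0.97, Kcne3 0.87) rest on a class in which 1 cell holds all UMIs.

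Free RNA, which leaks from broken cells into droplets, was estimated next, since 46.3% of the LI cells were neutrophils. The estimate assumes, without a test, that microglia make none of the neutrophil granule genes Retnlg, Mmp8, Ngp, Camp, Ltf, Lcn2, Wfdc21 and Cd177. Their microglial level, as a share of their level over all cells of the library, had a median of 0.752% in WT (0.569% to 2.62% over the 8 genes) and of 1.63% in LI (0.962% to 2.78%). In WT microglia 99 Camp UMIs lay in 99 cells and 89 Ngp UMIs in 89 cells. In LI microglia 1146 Camp UMIs lay in 854 cells, with at most 6 in a cell. These are low counts spread over many cells.

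Applied to the 7 genes, this share gives the level that free RNA would leave in microglia if it reached them in the same proportion. In WT it came to 0.927% of the measured level for Spp1, 1.09% for Lpl, 0.797% for Cst7, 2.37% for Fabp5, 3.59% for Ch25h and 7.05% for Lgals3. All 7 of the 7 genes were measured above it, Gpnmb by 1 UMI. In LI it came to 3.31% for Cst7, 3.97% for Lpl, 6.72% for Spp1, 13.6% for Fabp5 and 52.3% for Lgals3, where the estimate was 14.5 of 27.8 CPM. Measured levels were above it for 5 of 7 genes, and Gpnmb and Ch25h had 0 UMIs. The share of all genes above their own estimate was not taken. These counts and those below therefore have no background and are not read as particular to the 7 genes. With the highest of the 8 granule genes in place of the median, the estimate for Lgals3 in LI was 89.3% of its level and inside the interval of that level. After subtraction of the median estimate the log2 ratio of Lgals3 was 1.19 instead of 2.15, that of Fabp5 1.34 and that of Cst7 0.39.

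Other reference genes gave larger estimates. With 7 classical monocyte genes (Ly6c2, Ccr2, Plac8, Ms4a4c, F13a1, Fn1 and Vcan) the median share was 11.3% in WT and 4.91% in LI, and the estimate for Lgals3 was 106% and 158% of its measured level. With 8 lymphoid genes, among them Cd3g and Gzma, the shares were 14.9% and 37.1%, and 4 and 1 of the 7 genes were above the estimate. In contrast to the granule genes, UMIs of some lymphoid genes were packed into few microglia. For Gzma, 121 of 224 UMIs in WT microglia and 90 of 97 in LI microglia lay in 1 cell. Cd3g had 53 UMIs in 17 cells and 40 in 11 cells. Not all 8 genes were packed in this way. Klrd1 had 286 UMIs in WT microglia with at most 4 in a cell, and 108 UMIs in 70 LI microglia with at most 17. Ccl5 had 372 UMIs in 98 WT and 285 in 56 LI microglia, with up to 58 and 71 in a cell.

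B cells are not a main source of these genes in mice and give a second reading for LI. Of the 100 B cell-like cells, with a median of 2750.5 UMIs, 8 had an Lgals3 UMI, 4 a Fabp5 UMI, 2 a Cst7 UMI, and 1 each an Lpl and a Spp1 UMI. The microglial shares, at a median of 3787.5 UMIs, were 6.10%, 3.74%, 5.33%, 1.38% and 0.615%. At full depth the shares for Lgals3, Fabp5 and Spp1 in LI microglia lie below those of the B cell-like cells. They lie inside the B cell-like intervals (3.52% to 15.2%, 1.10% to 9.93% and 0.0253% to 5.45%). The shares for Cst7 and Lpl lie above, also inside the intervals (0.243% to 7.04% and 0.0253% to 5.45%). These shares therefore cannot decide whether microglia express the genes, and no expression is read from them. The next counts are those of Lgals3, Fabp5 and Spp1. The B cell-like share rests on 8, 4 and 1 cells, and that 1 cell held all 27 Spp1 UMIs. Thinned to 1000 UMIs per cell, with 17 microglia left out, Lgals3 was found in 1.45% of microglia and 2% of B cell-like cells, Cst7 in 1.66% and 0% and Fabp5 in 0.931% and 0%, where 0 of 100 cells allows up to 3.00%. The levels of Fabp5 were 11.4 and 11.3 CPM and those of Cst7 17.3 and 5.63 CPM. Lgals3 stood at 27.8 and 149 CPM, where 73.6% of the 53 UMIs of the B cell-like cells lay in 2 cells. Lpl stood at 4.16 and 14.1 CPM and Spp1 at 2.94 and 76.0 CPM, with all B cell-like UMIs of each gene in 1 cell. In WT, 10 B cell-like cells held 0 UMIs of all 7 genes, too few for a comparison.

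**Figure D3:**
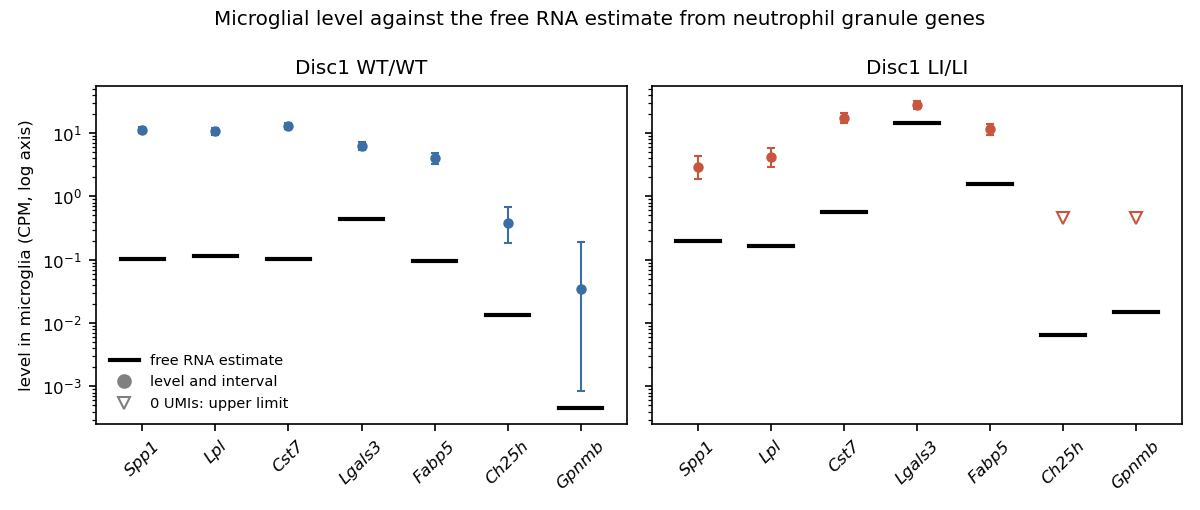
Level of each gene in microglia (CPM, log axis, with exact Poisson 95% interval, and open triangles at the upper limit where no UMI was counted) beside the free RNA estimate from 8 neutrophil granule genes (black bar), for WT (left) and LI (right). The estimate for Lgals3 rises from 7.05% of its level in WT to 52.3% in LI.

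The UMIs of Lgals3 in microglia also went with markers listed for other types. In LI, 9 microglia held at least 3 Lgals3 UMIs and together 111 of the 227 UMIs. All 9 carried at least 3 markers of another type than neutrophils, and 8 of the 9 carried at least 2 of the monocyte genes. Among the 1831 microglia without an Lgals3 UMI, these shares were 8.41% and 4.31%. In WT the 19 microglia with at least 3 Lgals3 UMIs carried them in 63.2% and 36.8% of cases, against 4.39% and 0.360% without Lgals3. Microglia with at least 3 Lgals3 UMIs were deeper than those without, with medians of 12135 against 3754 UMIs in LI and 8643 against 4262 in WT. The part of depth in these shares was not tested. Of the 12 WT microglia with at least 3 Lpl UMIs, 0 carried 3 markers of another type or 2 monocyte genes, while the 1 such LI cell carried 3 markers of another type. Microglia with 1 or 2 Lpl UMIs carried 3 such markers in 13.5% (WT) and 19.2% (LI) of cases, against 4.55% and 9.72% without Lpl. Whether cells joined in a droplet gave such UMIs was not tested. Without microglia that hold 3 such markers, the log2 ratio of Lgals3 was 1.83, that of Fabp5 1.41, that of Lpl -1.58 and that of Cst7 0.40.

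Levels were also compared between cells with higher and lower shares of the microglia markers of the rule. In WT, Lpl stood at 5.55 CPM (4.58 to 6.66) in cells with a marker share of at least 1% of UMIs, at 17.9 CPM (14.6 to 21.6) from 0.75% to 1%, at 33.4 CPM (26.9 to 41.0) from 0.5% to 0.75% and, just outside the class, at 78.8 CPM (63.6 to 96.5) from 0.25% to 0.5%. Lgals3 rose in the same order from 0.917 to 13.8, 30.4 and 114 CPM, and Cst7 from 9.99 to 15.7 and 27.9 CPM, with 24.6 CPM outside the class. In LI, Lgals3 went from 12.3 to 26.3, 91.8 and 547 CPM, and Lpl from 1.88 to 7.39, 7.44 and 97.8 CPM. Spp1 followed no such order, with 0.820, 49.3, 7.70 and 32.2 CPM in WT, where the 2 cells with most UMIs lie in the band from 0.75% to 1%, and 1.88, 0, 12.4 and 6.24 CPM in LI. Gpnmb had its 1 microglial UMI in the band from 0.5% to 0.75% of WT.

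These 4 bands differ in more than the marker share. The share of cells with at least 3 markers of another type than neutrophils was 2.26%, 7.05%, 17.7% and 51.1% over the bands of WT and 5.84%, 14.0%, 19.8% and 57.5% over those of LI. Their part in the levels was not tested. In the band of at least 1%, with 4328 and 1182 cells, Spp1 stood at 0.820 CPM (17 UMIs, 0.478 to 1.31) in WT and 1.88 CPM (9 UMIs, 0.858 to 3.56) in LI. This turns the sign of its ratio, but the intervals overlap, so no order can be given. Lgals3 stood at 0.917 and 12.3 CPM, which widens its log2 ratio to 3.75.

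**Figure D4:**
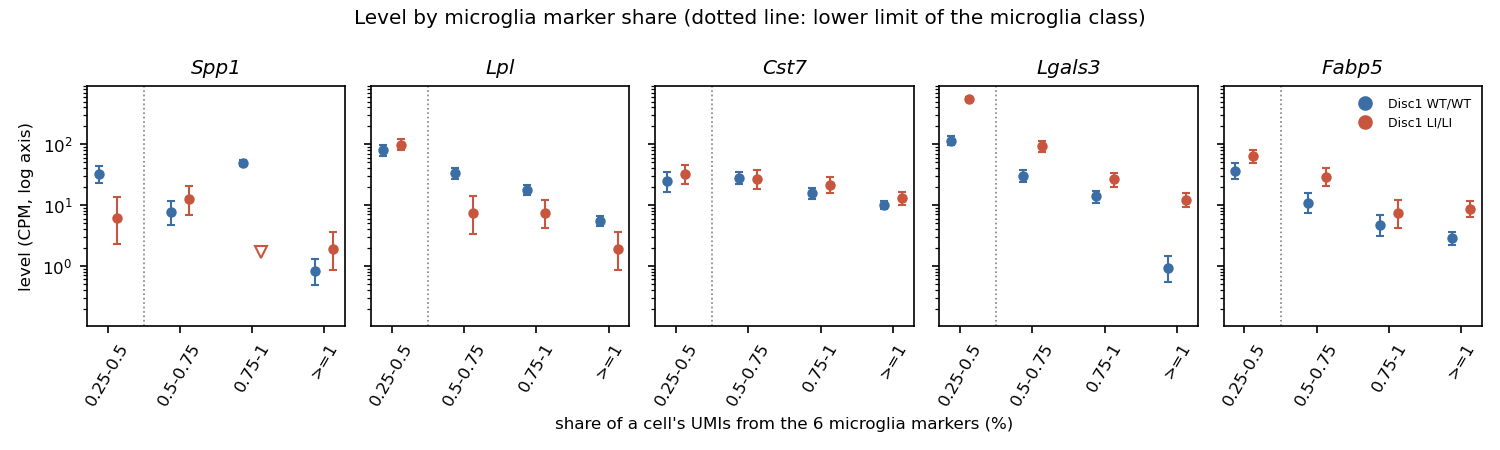
Level of 5 genes (CPM, log axis, exact Poisson 95% intervals, open triangle where no UMI was counted) in cells grouped by the share of their UMIs from the 6 microglia markers, for WT (blue) and LI (red). The dotted line is the lower limit of the microglia class, 0.5%. Lpl and Lgals3 fall from 78.8 and 114 CPM outside the class to 5.55 and 0.917 CPM in the highest band of WT.

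Next, the cells were counted by how many of the genes they held. UMIs of at least 1 of the 7 genes were found in 595 of 6180 WT microglia (9.63%, 8.90 to 10.4) and 296 of 1950 LI microglia (15.2%, 13.6 to 16.8). At least 2 were found in 74 (1.20%, 0.941 to 1.5) and 35 cells (1.79%, 1.25 to 2.49), and at least 3 in 18 (0.291%) and 4 cells (0.205%). At a depth of 1000 UMIs per cell, the shares with at least 1 were 2.65% and 4.60%, and those with at least 2 were 0.132% and 0.155%, 8 and 3 cells. The intervals of the latter pair overlap (0.0569% to 0.259% and 0.0320% to 0.453%). Lgals3 alone was detected in 72 WT and 119 LI microglia. Its free RNA estimate was 7.05% of its level in WT and 52.3% in LI by the granule genes, and 106% and 158% by the monocyte genes. The part of Lgals3 and of free RNA in the shares above was not tested.

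Pairs of genes in the same cell were counted next. In WT, Lpl was detected in 11 of 36 microglia with Spp1 (30.6%) and in 2.80% of those without, and Cst7 in 25 of 183 microglia with Lpl (13.7%) and in 4.29% of those without. In LI, Lpl was detected in 1 of 12 microglia with Spp1 (8.33%, against 1.34% without) and Cst7 in 3 of 12 (25%, against 5.21%). Among the 27 LI microglia with Lpl, 3 had Cst7 (11.1%, against 5.25%), 5 had Lgals3 (18.5%, against 5.93%) and 5 had Fabp5 (18.5%, against 3.54%). Fabp5 was detected in 11.8% of LI microglia with Lgals3 and 3.22% of those without, and Lgals3 in 5.77% of those with Cst7 and 6.12% of those without. Cells with a gene were deeper than cells without in most pairs (medians of 5960 against 4246 UMIs for Lpl in WT), and the part of depth in these shares was not tested.

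The microglia with at least 2 of the genes were compared with the microglia of the same library that had none, over gene lists of the disease-associated program that hold none of the 7. Microglia with at least 2 genes were deeper, with medians of 7395.5 against 4208 UMIs in WT and 5126 against 3705 in LI. The part of depth in the comparison was not tested. In WT, with 74 against 5585 cells, the counting interval of the ratio lay above 0 for 8 of 8 genes of the early stage and for 14 of 15 measured genes of the later stage, and below 0 for 12 of 12 homeostatic genes. Of all 3691 genes with at least 50 CPM in either group, 13.3% lay above and 15.7% below. The listed genes were not held to this limit, and Itgax, Csf1, Axl, Igf1 and Apoc1 lay under it in both groups. Whether an interval leaves out 0 also depends on the UMIs of a gene. Abundance was not matched between the lists and all genes, here or in the comparisons below. The median log2 ratios of the 3 lists were 0.61, 1.25 and -0.35, beside -0.048 for all genes. Apoe, the lipid carrier, stood at 2418 against 677 CPM (log2 ratio 1.84), the integrin gene Itgax, known as CD11c, at 46.3 against 3.00 CPM (3.95), the growth factor gene Csf1 at 41.5 against 5.15 CPM (3.01) and the receptor kinase gene Axl at 23.9 against 2.65 CPM (3.17). The tetraspanin genes Cd9 and Cd63 had log2 ratios of 0.72 and 1.25. P2ry12, the ADP receptor of resting microglia, stood at 2357 against 4047 CPM (-0.78), and Trem2, whose receptor the later stage needs, at 2513 against 2409 CPM (0.061, -0.012 to 0.13).

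In LI, with 35 against 1654 cells, the interval lay above 0 for 3 of 8 early genes and 2 of 13 later genes and below 0 for 2 and 2, where 13.7% of all 3443 genes lay above and 9.64% below. The homeostatic genes lay below 0 in 11 of 12 cases, with a median of -0.49. Apoe stood at 3419 against 482 CPM (2.83) and Lyz2, the lysozyme gene of macrophages and granulocytes, at 6397 against 542 CPM (3.56), but Cd9 at -0.14 and Cd63 at 0.15. Itgax had 0 UMIs in the 35 cells.

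Markers listed for other types were more frequent in these microglia, which were also deeper, as given above. The part of depth in this was not tested. At least 3 markers of another type than neutrophils were held by 27.0% of the 74 and 45.7% of the 35 microglia with at least 2 of the genes, against 3.83% and 7.74% of the microglia with none. With all such microglia left out, 54 and 19 cells with at least 2 genes remained. In WT the interval then lay above 0 for 15 of 15 later genes, with a median of 1.48, and the log2 ratio of Lyz2 was 1.32 and that of Apoe 2.84. In LI it lay above 0 for 6 of 8 early and 5 of 11 later genes, with medians of 0.37 and 0.49, while Lyz2 stood at 0.48 and Apoe at 2.25. The homeostatic genes then lay below 0 in 11 of 12 cases in WT and 7 of 12 in LI, where Txnip lay above 0 (0.57, 0.21 to 0.91). The shares of all genes above and below 0 were 11% and 12.5% in WT and 5.76% and 2.14% in LI. Neutrophil markers were not part of this filter, and at least 3 of them were found in 71.3% of all LI microglia. In both libraries the remaining microglia with at least 2 genes had higher Apoe, Cd9 (0.95 and 0.49) and Cd63 (1.48 and 0.81) than those with none. Their P2ry12 (-0.77 and -0.42) and Tmem119 (-0.46 and -0.35) were lower. P2ry12 and Tmem119, like Gpr34 and Siglech among the homeostatic genes, are markers of the rule for microglia, and the median marker share was 0.797% against 1.18% in WT and 0.815% against 1.10% in LI for all microglia with at least 2 genes against none, so their lower values are a description. The difference between the genotypes in these ratios was not tested. Without the 2 cells with the most UMIs of the genes, 13 of 15 later genes in WT and 2 of 13 in LI lay above 0.

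In the 18 and 4 microglia with at least 3 of the genes, the 10 genes that were highest over microglia with none in both libraries were Ccnb1, Aspm, Cdc20, Birc5, Ube2c and Mki67, which act in cell division, and Lilrb4a, Vim, Lgals1 and Cybb. In WT, Mki67 had 21 UMIs in the 18 cells (124 against 0.897 CPM) and Vim 23 UMIs (135 against 6.16 CPM). In LI, Mki67 had 2 UMIs in the 4 cells and Vim 29 UMIs (821 against 22.0 CPM). The 5 lowest were Tmem135, Safb, Vcpip1, Zfp329 and 4931406C07Rik, each with 0 UMIs in the 4 LI cells and 2 to 4 UMIs in the 18 WT cells. Against microglia with none, the 18 WT cells had the interval above 0 for 8 of 8 early and 13 of 15 later genes and below 0 for none of them. The 4 LI cells had 1 early gene above and 4 below (median -0.26) and 2 of 11 later genes above and 4 below (median -0.46). No share over all genes was taken for these counts, and microglia with markers of another type were kept. The 18 WT cells include the 2 cells with the most Spp1 UMIs, which held 21443 and 17961 of their 169897 UMIs. The counts without those 2 cells were not taken. The 18 and 4 cells were deeper than those with none, with medians of 8085.5 and 9451 against 4208 and 3705 UMIs. The part of depth was not tested. The LI values of Ccnb1, Aspm and Mki67 rest on 2 UMIs each.

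Between genotypes, few genes of the rest of the disease-associated program were 1.5-fold apart in microglia as a whole. For these counts and medians 0.5 was added to each UMI count, as for the counts over all genes. Of 8 early genes, Lyz2 was at least 1.5-fold higher in LI (446 and 752 CPM, log2 ratio 0.75), none was lower, and the median log2 ratio was 0.24. Of 15 measured later genes none was higher and 2 were lower, the growth factor gene Igf1 (108 and 10 UMIs, -1.59) and the hypoxia factor gene Hif1a (138 and 89.9 CPM, -0.62), with a median of 0.0096. Apoc1, a lipoprotein gene with 12 and 2 UMIs, was not counted as lower, and its interval included 0. Of 12 homeostatic genes none passed 1.5-fold, with a median of -0.17. The listed genes were measured where they had at least 10 UMIs. Among all 13137 such genes, 26.1% were 1.5-fold apart, 6.91% higher and 19.2% lower, with a median of -0.17. Among the 3556 genes with at least 50 CPM, 14.4% were 1.5-fold apart, 1.27% higher and 13.1% lower, with a median of -0.12. Igf1, Axl, Itgax, Csf1, Lilrb4a and Apoc1 lay under 50 CPM in both libraries. Apoe stood at 796 and 634 CPM (-0.33), Trem2 at 2418 and 2982 CPM (0.30), Tyrobp at 3175 and 4334 CPM (0.45), Cd9 at 1472 and 1564 CPM (0.087) and Cd63 at 476 and 479 CPM (0.0095). Axl (98 and 26 UMIs), Itgax (143 and 28) and Csf1 (181 and 55) had intervals of the ratio that included 0.

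The classes outside microglia held different kinds of cells in the 2 libraries. In the other cells Lgals3 had a log2 ratio of 1.97, Cst7 of 1.42, Fabp5 of 1.18, Spp1 of -1.29 and Lpl of -1.34, where 55.1% of 13217 genes were at least 1.5-fold apart, 13% higher and 42.1% lower. The other cells held 1023 classical monocyte-like cells among 2245 in LI and 32 among 736 in WT. Within the antigen-presenting cell-like cells the ratio of Lgals3 was 2.11 (1.85 to 2.38) and that of Lpl -2.40 (-4.13 to -1.02), the latter from 29 and 5 UMIs. In neutrophils Lgals3 had 0.28 (0.13 to 0.43), Fabp5 0.91 (0.26 to 1.65) and Spp1 0.17 (-0.83 to 1.39), and 56.6% of 11477 genes were at least 1.5-fold apart, 11.3% higher and 45.3% lower. Over all sorted cells Lgals3 was at 58.6 and 893 CPM, a log2 ratio of 3.93, and Fabp5 at 12.6 and 95.1 CPM (2.92).

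**Figure D5:**
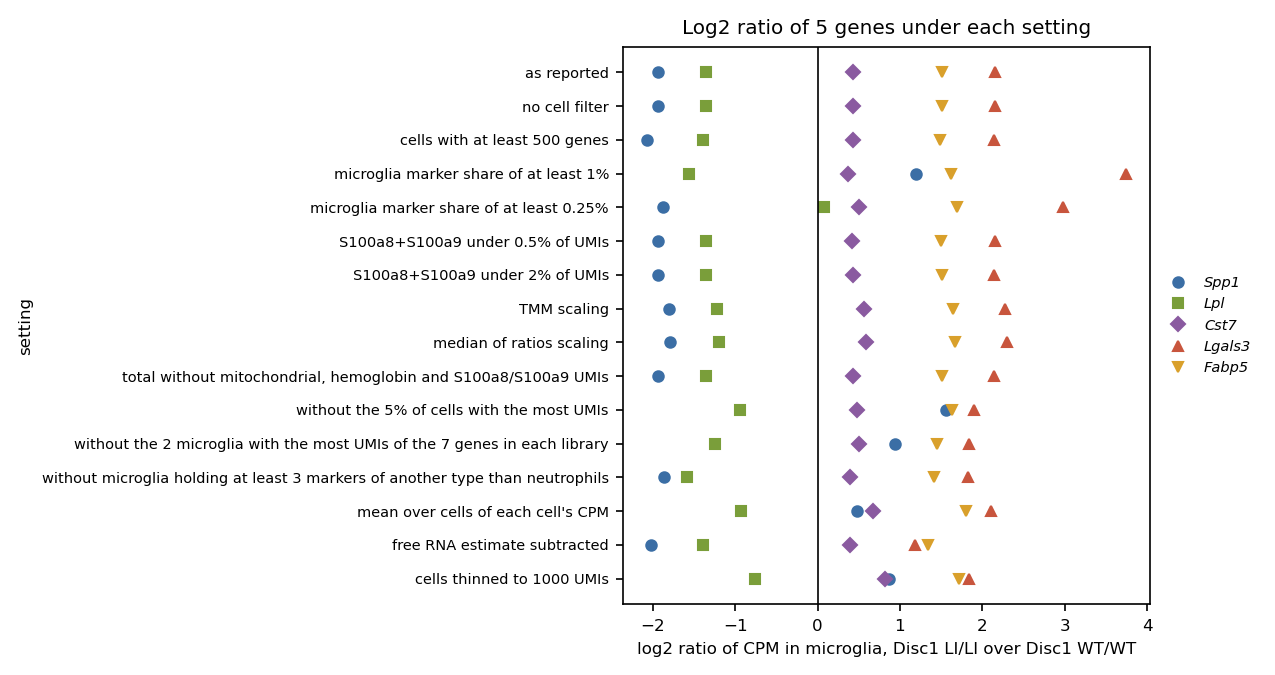
Log2 ratio of CPM in microglia, LI over WT, of 5 genes (symbols) as reported and under each of 15 other settings (rows). Lgals3, Fabp5 and Cst7 lie right of 0 in all rows, Lpl lies left of 0 in all rows but 1, and Spp1 lies right of 0 in 5.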

How the data were processed

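Cells of 1 WT and 1 LI library were profiled with 10x Chromium v3 or v3.1 3′ kits, and which kit served which library is not given in the sources used here. Per the file headers, the deposited values are UMI counts per gene and barcode from Cell Ranger 6.1.2, and the submitters' processing notes also name STAR, Seurat 3.0.1 and mm10. The authors' filtered barcodes numbered 7038 (33601957 UMIs) in WT and 7834 (47731571 UMIs) in LI, of which 6 and 17 were left out here for under 200 genes or over 10% mitochondrial UMIs. No doublet caller was run.

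Counts were summed over the cells of a class and given as CPM. The genes and lists were chosen with earlier results of these data known. Named genes were the 8 genes, fixed lists of 8 early, 16 later and 12 homeostatic genes, 3 neighbours of each gene by pattern, and the 10 highest and 5 lowest genes of microglia with at least 3 of the genes. The 2 cells with the most Spp1 UMIs were singled out after their values were seen. Ratios have exact binomial intervals conditional on the sum of both counts, levels exact Poisson and shares Clopper-Pearson intervals, all at 95%. A count of 0 was read as up to 3. With 1 library per genotype no test was run. The work was done with scipy 1.17.1 and numpy 2.4.6 under Python 3.11.15, with TMM factors from edgeR 4.0.16 in R 4.3.3. The code for the ratios was tested on simulated Poisson sums. These do not hold the packing of UMIs into few cells seen here, so they do not test the intervals for it. GENCODE M21 matched 32158 of 32285 identifiers. Alternatives changed the class limits, depth, scaling, free RNA reference and cells included.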

Additional observations from a re-analysis of the deposited data

How the results depend on the processing

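Over 15 other settings the microglial log2 ratio stayed above 0 for Lgals3 (1.19 to 3.75), Fabp5 (1.34 to 1.80) and Cst7 (0.37 to 0.82, past 1.5-fold in 2). The free RNA setting among them subtracted the median granule estimate only. With the highest granule gene the estimate for Lgals3 was 1.54 of 6.26 CPM in WT and 24.8 of 27.8 CPM in LI. With monocyte genes it was 106% and 158% of the level. Ratios after subtracting these larger estimates were not taken, so the direction for Lgals3 is not shown to hold under them. The number of genes 1.5-fold apart was 4, but 5 at 1000 UMIs per cell and 3 with a marker share of at least 0.25%. Spp1 turned above 0 in 5 settings: 1.19 with a marker share of at least 1%, 1.56 without the 5% of cells with the most UMIs, 0.94 without the 2 cells of each library with the most UMIs of the genes, 0.86 at 1000 UMIs per cell and 0.48 as a mean over cells. In all of these but the mean over cells, Spp1 became the median of the 5 genes. Its turn at the 1% limit rests on 17 and 9 UMIs, and the intervals of the 2 levels overlap. Lpl turned to 0.081 with a marker share of at least 0.25%. The share of microglia with at least 2 of the genes was 0.416% (WT) and 0.931% (LI) at the 1% limit, 2.91% in LI at 0.25%, 0.766% in WT without the 5% deepest cells, 0.918% and 1.08% without cells holding 3 markers of another type, 0.132% and 0.155% at 1000 UMIs, and 0.403% and 0.759% at 2000. Lymphoid references left 4 (WT) and 1 (LI) genes above the free RNA estimate, and monocyte references 4 in WT. At the 1% limit the WT levels were 0.820 CPM for Spp1, 5.55 for Lpl, 9.99 for Cst7, 0.917 for Lgals3, 2.85 for Fabp5 and 0 for Gpnmb and Ch25h, and the LI levels 1.88 for Spp1 and Lpl, 12.9 for Cst7, 12.3 for Lgals3 and 8.75 for Fabp5. Of all genes with at least 10 UMIs, 26.1% were 1.5-fold apart. Why these values moved was not tested, apart from the 2 cells named for Spp1. The settings without the highest cells, without cells holding other markers and with monocyte references were chosen after seeing the data. No paired analysis was possible because there is 1 library per genotype. The 7 genes had between 0 and 376 UMIs in the microglia of a library, which sets the precision, and 0 of 1950 cells, read as up to 3, still allows 0.154% with a UMI.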
